A study of Mus musculus with 10 samples.

Results

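The miR-125, miR-99 and miR-100 family was taken as 10 mature miRNAs, chosen by name from a table of 1061, whatever their values. They are the 5p strands mmu-miR-125a-5p, mmu-miR-125b-5p, mmu-miR-99a-5p, mmu-miR-99b-5p and mmu-miR-100-5p and the 3p strands mmu-miR-125a-3p, mmu-miR-125b-1-3p, mmu-miR-125b-2-3p, mmu-miR-99a-3p and mmu-miR-99b-3p, named below without the mouse prefix. All 10 were above 0 in every library and passed the filter used for testing, a mean of at least 10 normalised reads, which 484 of the 1061 miRNAs passed. Small RNA was sequenced from both retinas of 5 wild type C57BL/6J mice aged 34 postnatal days, numbered 61, 64, 65, 66 and 68, which gave 5 left and 5 right libraries. All 5 animals had carried a goggle with a -20 D lens over 1 eye for 10 days, starting at postnatal day 24, and the other eye had none. The labels tell left from right retinas, and nothing in them says which eye wore the goggle. Right and left retinas of a mouse were therefore compared without naming a treated one, and an effect of the lens would cancel if its side varied between mice. Each library is a whole retina, so more cells of a type and more of a miRNA per cell cannot be told apart.

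These miRNAs come from hairpin precursors, of which Dicer cuts out a duplex; usually 1 strand is kept in the silencing complex and the other is mostly degraded. The bases next to the 5′ end, the seed, lead the pairing with target mRNAs. miR-125 is the vertebrate relative of lin-4, the miRNA that sets developmental timing in the worm, and it represses Lin28, itself an inhibitor of let-7 processing. Together with let-7 and miR-9, miR-125 is known in the retina for moving progenitors from early to late fates, and miR-125b is among the miRNAs abundant in Müller glia. miR-99 and miR-100 are known as repressors of Mtor and of the insulin-like growth factor receptor.

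The mature sequences of all 10 members were found in RefSeq for GRCm38.p6. They are printed 5′ to 3′ with the seed, bases 2 to 8, in capitals, since the seeds sort the 5p strands into 2 groups.
miR-125a-5p: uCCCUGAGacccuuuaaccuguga
miR-125b-5p: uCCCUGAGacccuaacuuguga
miR-99a-5p: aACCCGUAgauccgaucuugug
miR-100-5p: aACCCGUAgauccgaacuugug
miR-99b-5p: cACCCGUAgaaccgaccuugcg
The first 2 share the seed CCCUGAG and their first 13 bases. Among the 909 miRNAs of the table with a RefSeq sequence, 1 other holds this seed, miR-351-5p (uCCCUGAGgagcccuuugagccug). The other 3 share the seed ACCCGUA, which no further miRNA of the table with a sequence holds. Counted from the 5′ end of miR-99a-5p, miR-100-5p differs from it by a single substitution, U16A, and miR-99b-5p by 4, which are A1C, U11A, U16C and U21C. How reads that match both miR-99a-5p and miR-100-5p were assigned is not given in the sources used here, so the split between these 2 levels is uncertain.

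The 3p strands are less alike than the 5p strands opposite to them.
miR-125a-3p: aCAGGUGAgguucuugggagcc
miR-125b-1-3p: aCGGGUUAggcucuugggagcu
miR-125b-2-3p: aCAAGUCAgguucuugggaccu
miR-99a-3p: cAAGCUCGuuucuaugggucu
miR-99b-3p: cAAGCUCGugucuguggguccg
The seeds of the 3 miR-125 3p strands all differ, and the 2 miR-99 3p strands share AAGCUCG. The hairpins of miR-99a and miR-100, with both mature strands in capitals, show that near-identical 5p strands sit opposite 3p strands that can be told apart.
Mir99a: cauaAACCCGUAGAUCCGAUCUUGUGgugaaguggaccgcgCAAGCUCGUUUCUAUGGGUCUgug
Mir100: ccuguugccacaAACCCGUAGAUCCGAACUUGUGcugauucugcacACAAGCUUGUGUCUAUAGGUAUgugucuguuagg

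The members lie in 3 clusters of the GRCm38 build, each built as a miR-99 or miR-100 hairpin, a let-7 hairpin and a miR-125 hairpin, all on the plus strand. On chromosome 9, miR-100-5p (41531437 to 41531458) and miR-125b-1-3p (41581980 to 41582001) lie on either side of let-7a-2 within 50.6 kb. In the GENCODE annotation both are in introns of the noncoding genes 3110039I08Rik and Gm49317, miR-125b-1-3p is also in an exon of the sense-intronic Gm28119, and miR-100-5p lies opposite an exon of Gm48742. On chromosome 16, miR-99a-5p (77598940 to 77598961), miR-99a-3p (77598977 to 77598997) and miR-125b-2-3p (77646318 to 77646339) lie in introns of Mir99ahg, with let-7c-1 between them; the miR-99a strands also lie opposite an intron of Gm11146. On chromosome 17, miR-99b-5p (17830194 to 17830215), miR-99b-3p (17830232 to 17830253), let-7e, miR-125a-5p (17830817 to 17830840) and miR-125a-3p (17830855 to 17830876) fit within 683 bases of Spaca6, a gene of sperm-egg fusion, with miR-99b in an intron and miR-125a in an exon. miR-125b-5p is made from both chromosome 9 (41581940 to 41581961, the position in the table) and chromosome 16 (77646279 to 77646300). The 2 copies are identical, so its reads do not tell these loci apart, whereas its 3p strands do.

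The 5p strands of the family were among the abundant retinal miRNAs, led by miR-125a-5p. The family took 0.369% ± 0.049 (SD, n = 10 libraries) of the normalised total, from 0.311% to 0.447%. Normalised reads are the unit of the deposited table, in which each library was set to nearly the same values rank by rank, so equal values in 2 libraries mean equal ranks. miR-125a-5p led with a mean of 25755 ± 2610 normalised reads (SD, n = 10) and stood between rank 24 and 29 of a library. miR-99b-5p followed with 19068 ± 3668, miR-125b-5p with 11583 ± 1561, miR-100-5p with 2527 ± 686 and miR-99a-5p with 2388 ± 554. By share of the family, miR-125a-5p took 40.3%, miR-99b-5p 29.9% and miR-125b-5p 18.1%, so the compact chromosome 17 cluster gave the 2 most abundant members. By seed, the 2 miR-125 5p strands summed to 30964 to 43265 normalised reads in a library and the 3 miR-99 and miR-100 5p strands to 18177 to 31345. Adapter ligation favours some sequences, so levels of different miRNAs are compared here as normalised reads and not as molecules.

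The 3p strands were lower throughout. miR-125b-2-3p had a mean of 1338 ± 76.1 normalised reads (SD, n = 10), miR-125b-1-3p 905 ± 147, miR-99b-3p 114 ± 10.2, miR-99a-3p 106 ± 10.6 and miR-125a-3p 81.4 ± 14.1. In this order of levels, miR-125a-5p was above miR-99b-5p in 10 of 10 libraries although their ranges overlapped. miR-99b-5p was likewise above miR-125b-5p in 10 of 10. miR-100-5p and miR-99a-5p were not separated, as each was the higher in 5 libraries. miR-99b-3p exceeded miR-99a-3p, and miR-99a-3p exceeded miR-125a-3p, in 8 of 10 libraries each, with overlapping ranges. The remaining neighbours did not overlap.

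**Figure D1:**
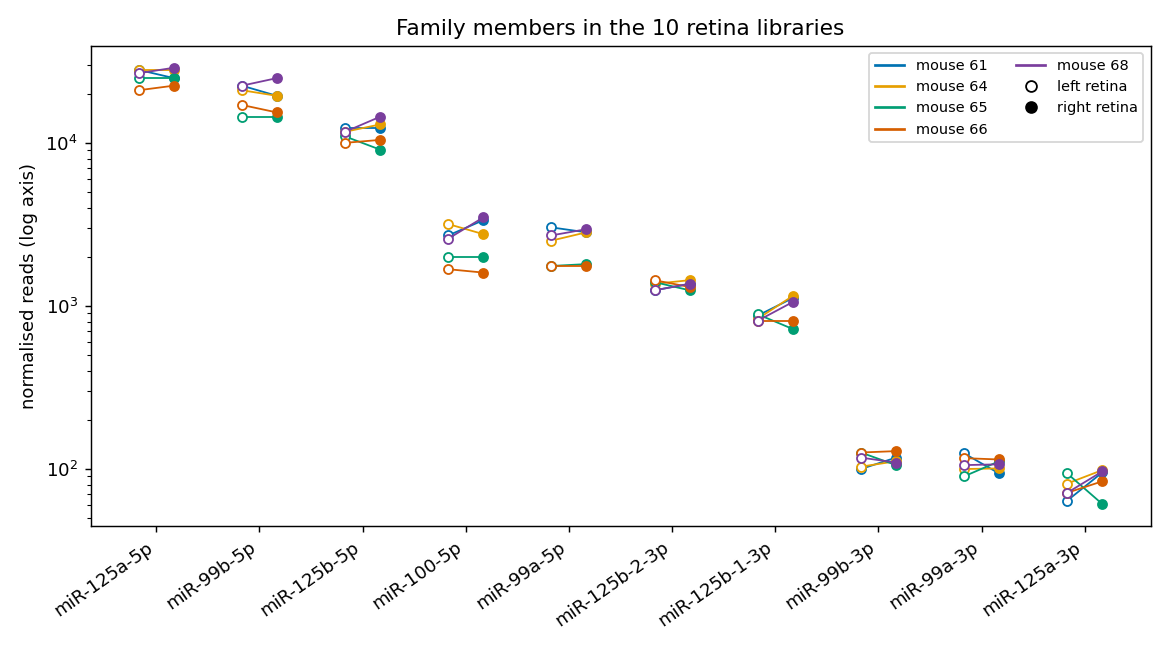
Normalised reads (log axis) of the 10 family members, ordered by mean, in 10 retina libraries. Open points are left and filled points right retinas, a line joins the retinas of a mouse. The 5p strands span means from 2388 to 25755 and the 3p strands from 81.4 to 1338.

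Right and left retinas were set against each other to ask whether a member differs within animals that wore a lens over a single eye. Of the 10 members, 0 passed limma's test with mouse as a block at an adjusted p of 0.05, and 0 of all 484 miRNAs (0%) did. At an unadjusted p under 0.05 there were 0 members, against 12 of the 484 miRNAs (2.48%). The fold changes, on the log2(value + 1) scale and right minus left, were above 0 for 8 members and below for 2, of which 5 change sign when 1 mouse is left out. Their median was 0.03, against 46.3% above 0 and a median of -0.01 among all tested miRNAs. No member had 1 direction in all 5 mice, and left and right ranges overlapped for 10 of 10 members, where 0.826% of all tested miRNAs did not overlap. The p values of this test set the right-minus-left difference against the spread of that difference over the 5 mice.

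Among the miR-125 5p strands, miR-125a-5p was at 27971, 27971, 24916, 20982 and 26690 normalised reads in the left retinas of mice 61, 64, 65, 66 and 68. In the right retinas it was at 24916, 27971, 24916, 22384 and 28832, in the same order of mice. The right eye was higher in mice 66 and 68, lower in mouse 61 and at the same rank as the left in mice 64 and 65. The log2 fold change was 0.01 (SE 0.05), with a 95% interval from -0.10 to 0.12.

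miR-125b-5p was at 12364, 11670, 10930, 9982 and 11670 normalised reads in left and at 12364, 12948, 9068 (the lowest of all), 10406 and 14434 (the highest) in right retinas of mice 61, 64, 65, 66 and 68. The right retinas were thus spread more widely than the left ones, 11844 ± 2119 against 11323 ± 905 (SD, n = 5); the difference in spread was not tested. The log2 fold change was 0.05 (SE 0.08, 95% interval -0.15 to 0.25).

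The 5p strands of the miR-99 seed group lay on both sides of 0. miR-99b-5p had a log2 fold change of -0.06 (SE 0.06, 95% interval -0.20 to 0.08) and was lower on the right in mice 61, 64 and 66. miR-99a-5p had 0.05 (SE 0.07, -0.11 to 0.21), and miR-100-5p 0.09 (SE 0.11, -0.17 to 0.36). For each of these 3, the mice moved in both directions, and at least 1 mouse had the same value in both eyes. By limma, the adjusted p was 0.971 for miR-99a-5p and miR-100-5p and 0.958 for miR-99b-5p.

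The widest differences were those of 2 miR-125 3p strands. miR-125a-3p was at 63.7, 81.1, 93.5, 71.2 and 71.2 normalised reads in left and at 94.9, 98.1, 60.7, 83.7 and 96.2 in right retinas of mice 61, 64, 65, 66 and 68. It was higher on the right in 4 of 5 mice, and mouse 65 went the other way by -0.61 on the log2 scale. Its log2 fold change was 0.18 (SE 0.18), with a 95% interval from -0.25 to 0.61 and an adjusted p of 0.958 by limma.

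miR-125b-1-3p was at 870.0, 831, 886, 809 and 809 normalised reads on the left and at 1115, 1148, 719, 809 and 1054 on the right. The left retinas lay close together, the right ones of mice 61, 64 and 68 above all left values, and that of mouse 65 below them. The log2 fold change was 0.18 (SE 0.13, 95% interval -0.14 to 0.50; adjusted p by limma 0.958). Without mouse 65, which went the other way in both, the log2 fold changes were 0.37 for miR-125a-3p and 0.30 for miR-125b-1-3p. Their adjusted p values by limma were then 0.285 and 0.333. With any other mouse left out, the log2 fold changes were 0.08 to 0.16 and 0.11 to 0.23. Over all tested miRNAs, leaving out mouse 65 raised the count at an unadjusted p under 0.05 by limma from 12 to 63. The right library of mouse 65 was also the one with the most miR-184-3p, a miRNA of lens and cornea, at 22384 normalised reads against 988 to 2117 in the other 9; its part in these differences was not tested.

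The other 3p strands were close to 0, with log2 fold changes of 0.01 for miR-125b-2-3p, -0.02 for miR-99a-3p and 0.00 for miR-99b-3p. Their values ran from 1243 to 1434, from 89.8 to 124 and from 99.6 to 128 normalised reads. The 95% interval lay within 2-fold in both directions for 10 of the 10 members and for 437 of all 484 miRNAs. Its median half-width on the log2 scale was 0.22 for the family against 0.34 for all tested miRNAs. For the 110 tested miRNAs with a mean of at least 1000 normalised reads it was 0.19. A member could therefore differ by less than these intervals without being detected.

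**Figure D2:**
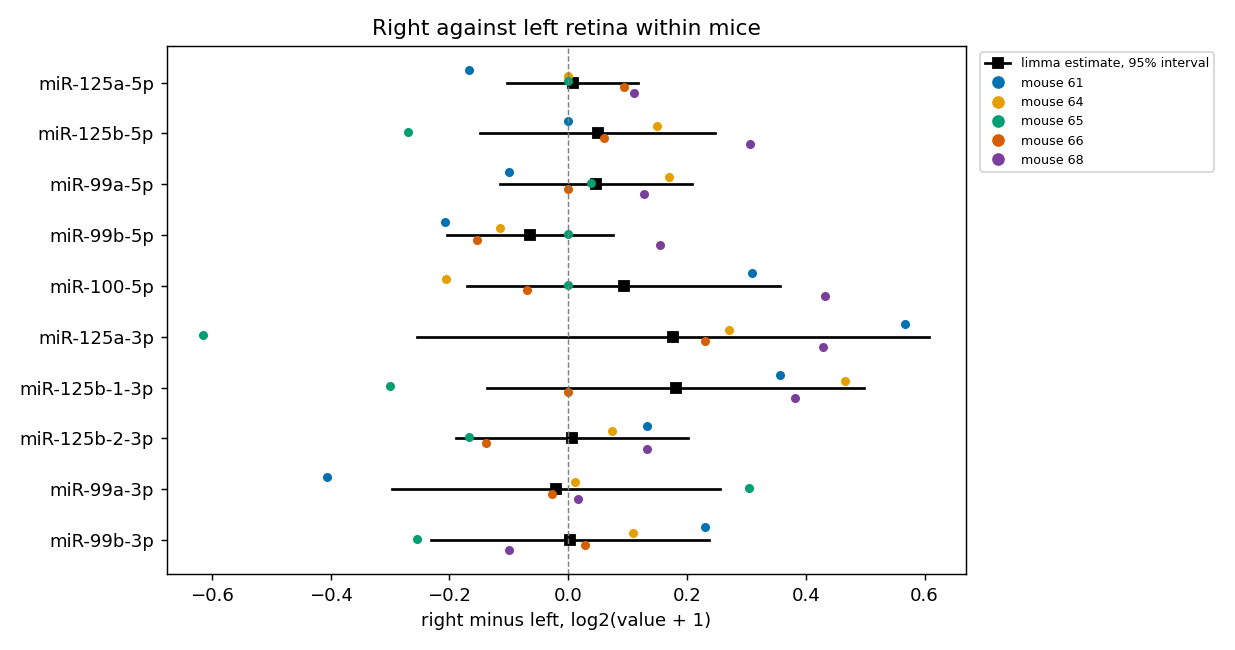
Right minus left on the log2(value + 1) scale for each member. Black squares and bars are limma's estimates with 95% intervals over 5 mice, coloured points single mice. All 10 intervals include 0, and mouse 65 lies at -0.61 for miR-125a-3p.

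The 5p strands of miR-99a, miR-99b, miR-100 and miR-125b had their 4 lowest values in the 4 libraries of mice 65 and 66. This pattern was looked for after the values had been seen, so the tests that follow describe these mice. miR-99a-5p was at 3023, 2508, 1753, 1753 and 2699 normalised reads in left and at 2820.2, 2820.2, 1800.3, 1753 and 2948 in right retinas of mice 61, 64, 65, 66 and 68. The 4 libraries of mice 65 and 66 were the 4 lowest, with 3 of them at the same rank, and did not overlap the other 6. miR-99a-5p passed limma's F test of the mouse term, with an adjusted p of 0.0338 over all 484 miRNAs, of which 8 (1.65%) passed. With any 1 mouse left out its adjusted p was 0.0727 to 0.179. The means of the mice spread by 0.74 on the log2 scale, and the eyes of a mouse differed by at most 0.17.

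miR-99b-5p was at 22384, 20982, 14434, 17043 and 22384 normalised reads in left and at 19388, 19388, 14434, 15330 and 24916 in right retinas, in that order of mice. miR-100-5p was at 2699, 3169, 1990.0, 1675 and 2578 on the left and at 3345, 2748, 1990.0, 1596 and 3480 on the right. In both, the libraries of mice 65 and 66 were again the 4 lowest, with mouse 65 lower in miR-99b-5p and mouse 66 in miR-100-5p. Neither passed over all miRNAs by limma, with an adjusted p of 0.0517 for miR-99b-5p and 0.128 for miR-100-5p.

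The miR-125 5p strands spread less. The means of the mice differed by up to 0.37 on the log2 scale for miR-125a-5p and 0.38 for miR-125b-5p, against 0.74 for miR-99a-5p, 0.71 for miR-99b-5p and 0.88 for miR-100-5p. miR-125b-5p was lowest in the right eye of mouse 65. The libraries of mice 65 and 66 were its 4 lowest too, at 9068 to 10930 normalised reads against at least 11670 in the others. miR-125a-5p was lowest in both eyes of mouse 66, and mouse 65 shared its value of 24916 with the right eye of mouse 61. Their adjusted p values in limma's F test were 0.173 and 0.365. Of the 5p strands, 4 of 5 had an unadjusted p under 0.05 in that test, against 14% of all tested miRNAs (68 of 484) and 22.7% of the 110 miRNAs with a mean of at least 1000 normalised reads. Without mouse 66, the unadjusted p by limma was 0.216 for miR-125a-5p and 0.0517 for miR-100-5p.

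All 5 of the 5p strands were below their own mean over the 10 libraries in both eyes of mice 65 and 66, and all 5 above it in both eyes of mice 64 and 68 and in the left eye of mouse 61. In the right eye of mouse 61, 4 of the 5 were above, and miR-125a-5p was below. By mouse means, mice 65 and 66 were the lowest for all 5 of the 5p strands, for 2 of the 5 3p strands (miR-125b-1-3p and miR-125a-3p) and for 21.5% of all tested miRNAs. miR-125b-1-3p was below its own mean in all 4 libraries of these mice, by -0.01 and -0.15 in the left and by -0.31 and -0.15 in the right retinas of mice 65 and 66 on the log2 scale. The mouse means of the 3p strands spread by 0.10 to 0.30 on the log2 scale, and 0 of 5 had an unadjusted p under 0.05 by limma. miR-99a-3p, for example, had a mouse F of 0.430 and miR-99a-5p one of 23.9. The 3p strands of miR-99a, miR-99b and miR-125a had under 130 normalised reads.

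**Figure D3:**
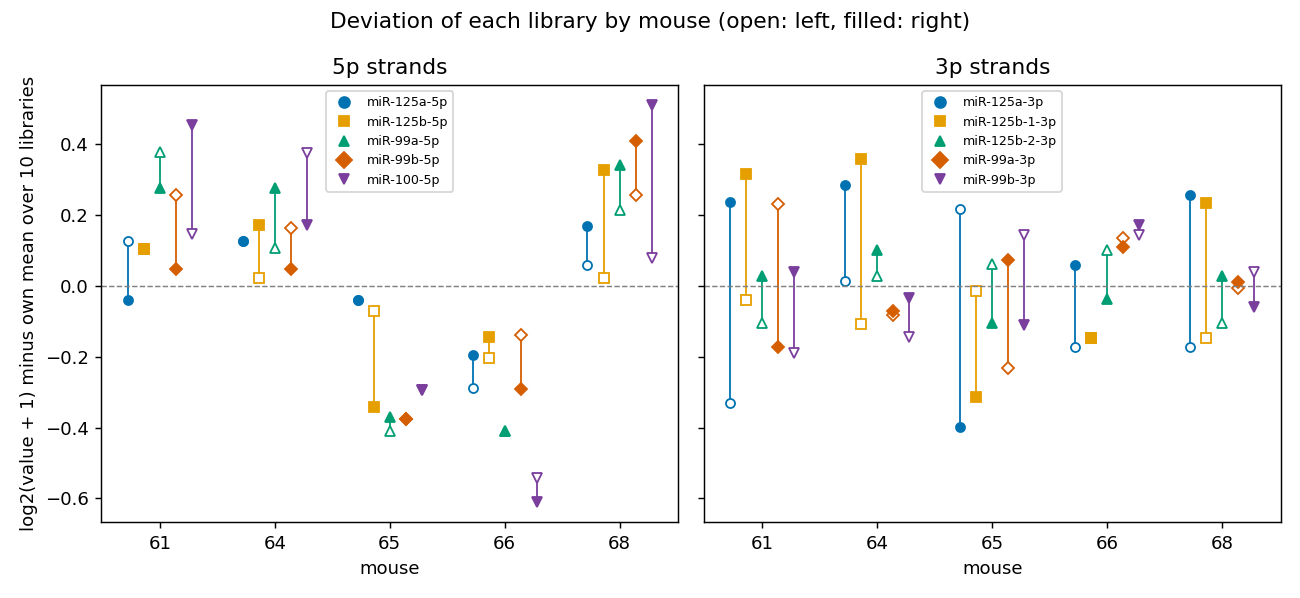
Each library's log2(value + 1) minus the member's mean over 10 libraries, by mouse. Left panel 5p strands, right panel 3p strands; open symbols are left and filled symbols right retinas, joined by a line. The 5p strands of mice 65 and 66 are all below 0; among the 3p strands, miR-125b-1-3p is too.

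Some cell type markers were also lowest in mice 65 and 66, at about the share of all tested miRNAs, and their part in the result was not tested. Of the 24 markers of retinal and other cell types, 19 were tested. In limma's F test of mouse, 4 of them (21.1%) had an unadjusted p under 0.05, against 14% of all tested miRNAs. Adjusted, 0 markers passed, against 1.65% of all tested miRNAs. miR-96-5p, a photoreceptor miRNA, had mouse means of 0.35, 0.22, -0.44, -0.32 and 0.18 around its own mean in mice 61, 64, 65, 66 and 68 on the log2 scale, so that it was lowest in mice 65 and 66. The same held for 4 of the 19 tested markers (21.1%), near the 21.5% of all tested miRNAs. They also include miR-211-5p, endothelial miR-126a-5p (0.07, 0.01, -0.11, -0.13 and 0.16) and erythroid miR-486a-5p (-0.01, -0.02, -0.16, -0.09 and 0.27). Other markers of these cell types did not follow. Endothelial miR-126a-3p was at 0.02, -0.13, 0.07, 0.01 and 0.02. Erythroid miR-451a and miR-144-3p were lowest in mouse 65 but above their means in mouse 66 (0.13 and 0.19). miR-182-5p and miR-183-5p of photoreceptors, and miR-204-5p, held a single rank in all libraries and could not differ. miR-211-5p, listed as a marker of the pigment epithelium, was at 0.29, -0.11, -0.17, -0.64 and 0.63, and its source in a whole retina was not tested. miR-9-5p, of neurons and glia, was at -0.06, -0.06, 0.21, 0.13 and -0.22, and miR-143-3p, of smooth muscle and pericytes, at -0.03, -0.03, 0.22, 0.07 and -0.22, so that both were highest in mouse 65.

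Undetected miRNAs were most frequent in mouse 64, and the tilt with base composition was largest in mouse 61. On average 181.5, 238, 182, 199.5 and 181 miRNAs were at 0 (under 1e-06) in a library of mice 61, 64, 65, 66 and 68. Per 10 points of GC content, the log2 values of these mice moved by -0.06, 0.02, 0.04, 0.01 and -0.01 across the 424 tested miRNAs with a RefSeq sequence. These are means over both eyes, which had opposite signs. Left libraries were at -0.15, -0.04, 0.12, -0.02 and -0.03 and right ones at 0.04, 0.08, -0.05, 0.03 and 0.01, in that order of mice. Only in mouse 65 was the right eye the lower, as for miR-125a-3p and miR-125b-1-3p. The part of this tilt in the differences between eyes was not tested. The labels give no sequencing or extraction batch, so mouse and any handling shared by both retinas of a mouse cannot be told apart.

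The strand ratio within a hairpin, taken as (5p + 1)/(3p + 1), differed between the hairpins by more than 10-fold. miR-125a had a geometric mean of 315 (from 260 to 432 in single libraries), miR-99b 163 (114 to 226) and miR-99a 21.8 (15.0 to 29.9). For miR-125b, the 5p strand was 5.14 times the sum of both 3p strands, from 4.45 to 5.97. A ratio of 2 strands also carries the ligation preferences of each, so these levels are not molar. The values were set rank by rank, so a ratio that differs between libraries reflects ranks and may not reflect the reads. The 3p strand of miR-100, which is no member, had a mean of 3.08 normalised reads, and its hairpin had the highest ratio and the least precise one (219 to 1375).

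miR-125b-2-3p was above miR-125b-1-3p in 10 of 10 libraries, by 1.49-fold in the geometric mean, from 1.22-fold in the right retina of mouse 61 to 1.77-fold in the left retina of mouse 66. In 4 of 5 mice the right retina had the lower ratio, with a mean difference of -0.17 ± 0.19 (SD over 5 mice) on the log2 scale, and higher on the right in mouse 65. For the miR-99a hairpin, the ratio was 24.2, 24.9, 19.3, 15.0 and 25.4 in left and 29.9, 27.8, 16.1, 15.3 and 27.5 in right retinas of mice 61, 64, 65, 66 and 68. The lowest 4 ratios were those of mice 65 and 66, as for the 5p strand alone. These mice also had the lowest 4 ratios of miR-99b (at most 136, against at least 164 in the others). The same held for miR-125b (at most 4.93 against at least 4.99) and miR-100 (at most 489 against at least 667), and not for miR-125a. Right minus left, the mean differences were 0.07 ± 0.21 for miR-99a, -0.07 ± 0.31 for miR-99b, -0.17 ± 0.49 for miR-125a and -0.03 ± 0.15 for miR-125b (log2, SD over 5 mice), each smaller than the spread between mice. The ratios are given as a description and were not tested.

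**Figure D4:**
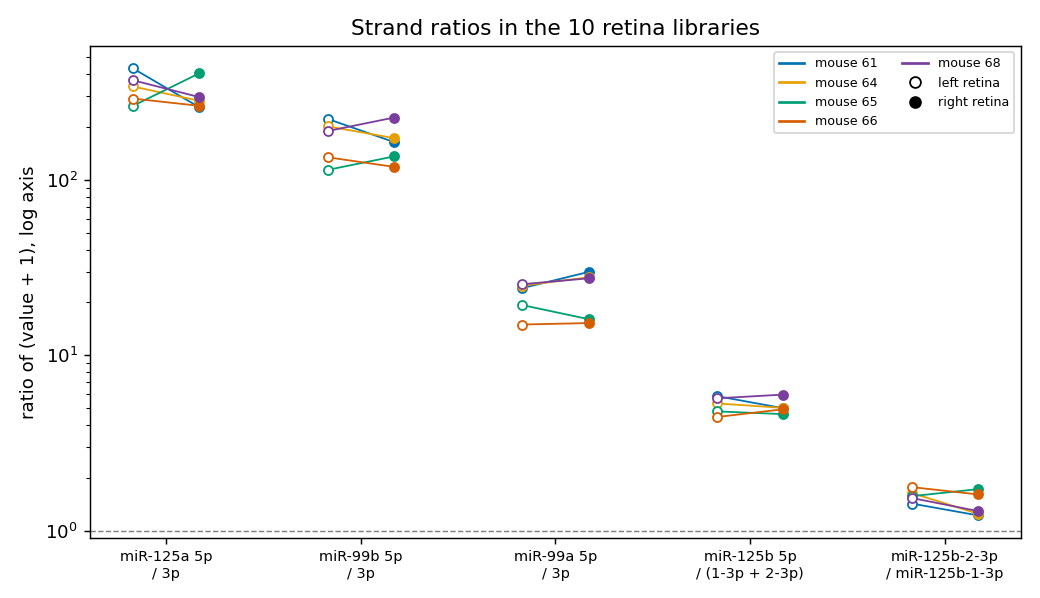
Ratio of 5p to 3p strand by hairpin, and of the 2 miR-125b 3p strands, as ratios of (value + 1) on a log axis. Open points are left and filled points right retinas, joined within a mouse. The dashed line marks equal values; miR-125a lies between 260 and 432 and miR-125b-2-3p over miR-125b-1-3p between 1.22 and 1.77.

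The miRNAs made with the members, or related to them in sequence, were a list of 10, of which 7 were tested. None passed limma's test of right against left (0 at an unadjusted p under 0.05) or its F test of mouse (0 at an unadjusted p under 0.05). Of all 484 tested miRNAs, 0% passed the first and 1.65% the second, and 2.48% and 14% had an unadjusted p under 0.05. With 7 miRNAs, counts of 0 say little about this list. let-7e-5p, encoded between miR-99b and miR-125a, was at 1950 ± 468 normalised reads (SD, n = 10), below both of its neighbours in every library, and had a mouse F of 0.646. let-7c-5p, of the miR-99a cluster and of a further locus on chromosome 15, had a mean of 21446 normalised reads, and let-7a-5p, made from several loci, one of 403943. let-7e-3p was at 26.2 to 76.1 normalised reads. let-7c-1-3p and let-7a-2-3p, which belong to single loci of the clusters, were below the filter, with means of 4.48 and 0.646, as was miR-100-3p.

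miR-351-5p, which carries the miR-125 seed and is encoded on the X chromosome, was at 205 to 1074 normalised reads. Its log2 fold change was 0.51 (SE 0.25), with an adjusted p of 0.958 by limma, and the right eye was higher in mice 65, 64 and 68 and lower in mice 61 and 66. miR-10a-5p and miR-10b-5p, whose sequences resemble miR-100 with a shifted seed, had log2 fold changes of -0.03 and -0.14. Of the 5 miRNAs listed for glia, which include miR-125b-5p, 0 passed either test. Of all 484 miRNAs, 0 passed the test of right against left and 8 (1.65%) that of mouse. In limma's F test of mouse, 1 of the 5, miR-9-5p, had an unadjusted p under 0.05 (0.0181), against 14% of all tested miRNAs. miR-9-5p had a log2 fold change of -0.02 and let-7b-5p of 0.01. miR-204-5p held a single rank in the 10 libraries, so that no difference could be measured.

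Likeness in pattern was measured as the root mean square difference of log2(value + 1), each miRNA centred on its own mean, over the 10 libraries, which share mice in pairs. Among 478 other tested miRNAs that varied, the nearest to miR-99a-5p was miR-99b-5p (0.15) and then miR-501-3p (0.16). The nearest to miR-100-5p was miR-99a-5p (0.17), then miR-3535 (0.20). miR-99a-5p and miR-100-5p differ by 1 base, and how reads matching both were assigned is not given. The part of such reads in their likeness was not tested. miR-99b-5p was nearest to miR-212-5p and miR-140-5p (0.13 and 0.14). For miR-125b-5p they were miR-342-3p (0.09) and miR-151-5p (0.10), and for miR-125a-5p miR-3078-5p (0.09) and miR-126a-5p (0.11).

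The nearest to each 3p strand was no member. They were miR-6988-3p and miR-383-5p for miR-125a-3p (0.13 and 0.14), miR-7068-3p and miR-652-3p for miR-125b-1-3p (0.10 and 0.12), and miR-434-5p and miR-27b-3p for miR-125b-2-3p (0.06 and 0.07). miR-497a-5p and miR-708-5p were nearest to miR-99a-3p (0.08 and 0.09), and miR-744-5p and miR-532-5p to miR-99b-3p (0.06 and 0.07). Members that vary little have many near neighbours by this measure.

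The libraries carried the miRNAs of the labelled tissue. The photoreceptor markers miR-182-5p, miR-183-5p and miR-96-5p made up 60.9% to 61.1% of the normalised total, and the neuronal markers miR-124-3p, miR-9-5p and miR-181a-5p 22.0% to 22.2%. miR-182-5p, miR-181a-5p and miR-183-5p held ranks 1, 2 and 3 in every library, and each rank had a set value. The narrow ranges of these shares follow from that and do not measure a constant tissue composition. Markers of lens and surface epithelium summed to 999 to 2073 normalised reads on the left and to 1922 to 22409 on the right, with the highest in mouse 65. Nearly all of that highest sum was miR-184-3p (22384). The other markers of this list were not raised in that library, with miR-205-5p at 25.6 (10.9 to 49.4 over all libraries) and miR-200c-3p at 0. Those of skeletal muscle summed to 273 to 1629 on the left, highest in mouse 68, and to 248 to 369 on the right. Of the 24 markers, 4 were at 0 in at least 1 library, among them miR-200c-3p in 7 and miR-206-3p in 3. Without mouse 65 or mouse 68, none of the 10 members passed the comparison of right with left, with log2 fold changes from -0.12 to 0.37 and adjusted p values of at least 0.285 by limma.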

How the data were processed

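Per the labels' protocols, 50 ng of column-purified small RNA per retina went into an Illumina TruSeq small RNA library. The submitters' processing notes name Bowtie, Partek, GRCm38 and mm10. Trimming, annotation and the assignment of shared reads were not given in the sources used here. Values deposited are a signal, the authors' normalised read counts per mature miRNA. Library totals ran from 17312269 to 17312436 and 342 ranks held the same value in every library, as after quantile normalisation, so the depth is unknown and no counting error can be given. The table held 0 columns of other samples.

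The model used log2(value + 1), a scale that compresses changes of low miRNAs. It was limma 3.58.1 under R 4.3.3 (mouse as a block, empirical Bayes with trend) over all 484 miRNAs with a mean of at least 10. All p values are two-sided; the Benjamini-Hochberg method adjusted them over all tested miRNAs, with a threshold of 0.05. The mouse block follows from both retinas coming from 1 animal. The deviations of left and right libraries of a mouse from their side's mean correlated across miRNAs, which are not independent, by 0.0893 to 0.382, against -0.338 to 0.355 with a median of -0.0824 for different mice, so the 2 ranges overlap. The fit was also run on simulated data with independent noise for each miRNA. These did not keep the rank-by-rank values of the deposited data, so they do not test the fit under that normalisation. The members and lists were chosen with earlier results of these data known. Named miRNAs are all members, the list of related miRNAs, the glia list, cell type markers where they bear on a result, and the 2 nearest in pattern to each member. Positions are those of the table, with the last base as end, and host genes are from GENCODE M21. Alternatives were another pseudocount, no filter, median-ratio scaling, no trend, no block and each mouse left out.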

Additional observations from a re-analysis of the deposited data

How the results depend on the processing

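Across the alternatives, 0 miRNAs passed the right-against-left test, with 7 to 63 at an unadjusted p under 0.05, the most without mouse 65; the smallest adjusted p for a member was 0.285. Without the replicate block it was also 0 miRNAs, with 13 at an unadjusted p under 0.05, and no call of a member changed. Of 100 log2 fold changes of members recomputed, 90 kept their direction, and the 10 that did not were values near 0 with a mouse left out. With 1 mouse left out, the log2 fold changes ranged from -0.0184 to 0.0512 for miR-125a-5p, from -0.0148 to 0.129 for miR-125b-5p, from -0.0248 to 0.0503 for miR-125b-2-3p, from -0.101 to 0.0763 for miR-99a-3p and from -0.0542 to 0.0671 for miR-99b-3p.

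The F test of mouse, whose alternatives were chosen after seeing the data, called 8 miRNAs with a pseudocount of 10, 8 without a filter, 10 with median-ratio scaling and 5 without the trend, and 3 to 7 with a mouse left out, where fewer samples remain. For miR-99a-5p the adjusted p was 0.0562 without the trend and from 0.0727 to 0.179 with any 1 mouse left out, so its call needs all 5 mice and the trend. miR-99b-5p passed without a filter (0.0351) and with median-ratio scaling (0.0388). The log2 strand ratio of miR-100 went from 9.32 to 7.56 with a pseudocount of 10, as its 3p strand is near 0. The depth is unknown, so what it limits in the low 3p strands could not be measured.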
